A study of Rattus norvegicus with 10 samples.

Results

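A set of 9 genes of renal organic anion and cation transport, Slc22a2, Slc22a5, Slc22a6, Slc22a7, Slc22a8, Slc22a12, Slc47a1, Slco4c1 and Slco1a6, were followed in rat kidney across 5 diet groups. They were chosen by name, as the members of the SLC22, SLC47 and SLCO carrier families that handle organic ions in the proximal tubule, and each was to be read from its own row of the deposited log2 table. Of the 9 genes 8 had a probe set of their own, 1 each, out of 14506 genes named by probe sets with a single symbol. Slc22a5, the carnitine carrier, shares its probe set with Slc22a4 and Slc22a21, so no value is given for it. Kidney RNA of male weanling Wistar rats was hybridised to 10 arrays after 6 days of feeding, with 2 arrays per group and 1 pool of 3 animals per array. The 5 groups were deficient fish oil (a diet without choline, with menhaden oil as fat), control fish oil (choline added, menhaden oil), necrotic corn oil (no choline, vegetable fat, kidneys labelled necrotic), deficient corn oil (no choline, vegetable fat, without that label) and control corn oil (choline added, vegetable fat). The treatment protocol describes the vegetable fat as corn and hydrogenated oils. It lists 4 diets, so the necrotic and the deficient corn oil pools came from the same diet, and how animals were sorted between them is not stated in the labels. Values are log2 intensities made by the authors with RMA, and 1 unit is a 2-fold difference. The array medians lay between 7.28 and 7.43. The mean of 13 proximal tubule markers was between 10.87 and 13.06 on all arrays. With 2 arrays per group, each a pool of different animals, errors describe the spread between pools, and their number bounds how precise any difference is.

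Proximal tubule cells clear organic anions and cations, including many drugs, hormones, creatinine and urate, by taking them up from blood across the basolateral membrane and releasing them into urine across the brush border. Slc22a6 (Oat1) and Slc22a8 (Oat3) are basolateral exchangers that swap intracellular dicarboxylate for organic anions, and Slc22a7 (Oat2) is a related anion carrier. Slc22a2 (Oct2) brings organic cations, creatinine and choline in at the basolateral side, and Slc47a1 (Mate1) passes cations out in exchange for protons at the brush border. Slc22a12 (Urat1) takes up urate from the tubule lumen, Slco4c1 carries cardiac glycosides and thyroid hormone, and Slco1a6 is a kidney member of the organic anion transporting polypeptides. In mouse and human kidney several of these genes are known targets of the transcription factor HNF4A.

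The promoters of 3 of these genes are shown because they stand for the span of the results: Slco1a6 had the largest fall in necrotic kidneys, Slc22a8 the largest among the SLC22 carriers of the 8 measured here, and Slc22a12 the smallest of all. The choice was made after the values were seen. RefSeq promoters (GRCr8, 250 bases before to 50 after the annotated start) were available for 7 of the 9 genes. Slc22a6 and Slc47a1 were not among them. Capitals mark the 50 bases from the annotated start on. The windows are chr4:176838983-176839282 (minus strand) for Slco1a6, chr1:214927034-214927333 (plus strand) for Slc22a8 and chr1:213281331-213281630 (minus strand) for Slc22a12.
Slco1a6: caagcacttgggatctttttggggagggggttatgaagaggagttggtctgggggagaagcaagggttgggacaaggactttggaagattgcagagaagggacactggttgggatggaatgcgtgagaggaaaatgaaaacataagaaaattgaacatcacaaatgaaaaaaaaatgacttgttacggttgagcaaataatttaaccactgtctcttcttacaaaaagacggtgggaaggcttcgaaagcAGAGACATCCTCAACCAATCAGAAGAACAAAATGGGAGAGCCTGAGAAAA
Slc22a8: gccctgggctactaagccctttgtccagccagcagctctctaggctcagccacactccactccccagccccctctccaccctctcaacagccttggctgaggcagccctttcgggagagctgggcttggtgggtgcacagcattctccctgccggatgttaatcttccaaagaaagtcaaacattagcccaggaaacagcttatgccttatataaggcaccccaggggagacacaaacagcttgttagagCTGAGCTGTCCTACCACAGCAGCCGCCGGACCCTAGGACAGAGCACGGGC
Slc22a12: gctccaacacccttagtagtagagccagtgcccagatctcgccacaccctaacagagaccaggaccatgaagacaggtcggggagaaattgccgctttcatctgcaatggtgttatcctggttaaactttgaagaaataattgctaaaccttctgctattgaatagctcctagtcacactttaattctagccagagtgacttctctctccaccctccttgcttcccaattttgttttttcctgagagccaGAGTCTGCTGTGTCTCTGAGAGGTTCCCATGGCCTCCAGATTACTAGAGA

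The first comparison asked how the carriers stood in kidneys labelled necrotic, set against kidneys of rats given the same oil with choline. All 8 measured carriers fell in the necrotic kidneys, with log2 differences between -4.31 and -1.18, and on each of the 8 probe sets the necrotic arrays were the lowest of the 10, as they were on 13.3% of all probe sets. Called means an adjusted p under 0.05 from a limma fit to all 5 groups. Errors are moderated standard errors with 2 arrays per group, their spread pooled over the 5 groups. Over all 29214 probe sets 10.7% were called lower in this comparison. The median difference of the 8 carriers was -2.23, against 0.05 over 14506 genes, of which 14.8% were called lower and 13.3% higher. The carriers are proximal tubule genes, and in whole kidney RNA fewer proximal tubule cells and less of the RNA per cell cannot be told apart.

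**Figure D1:**
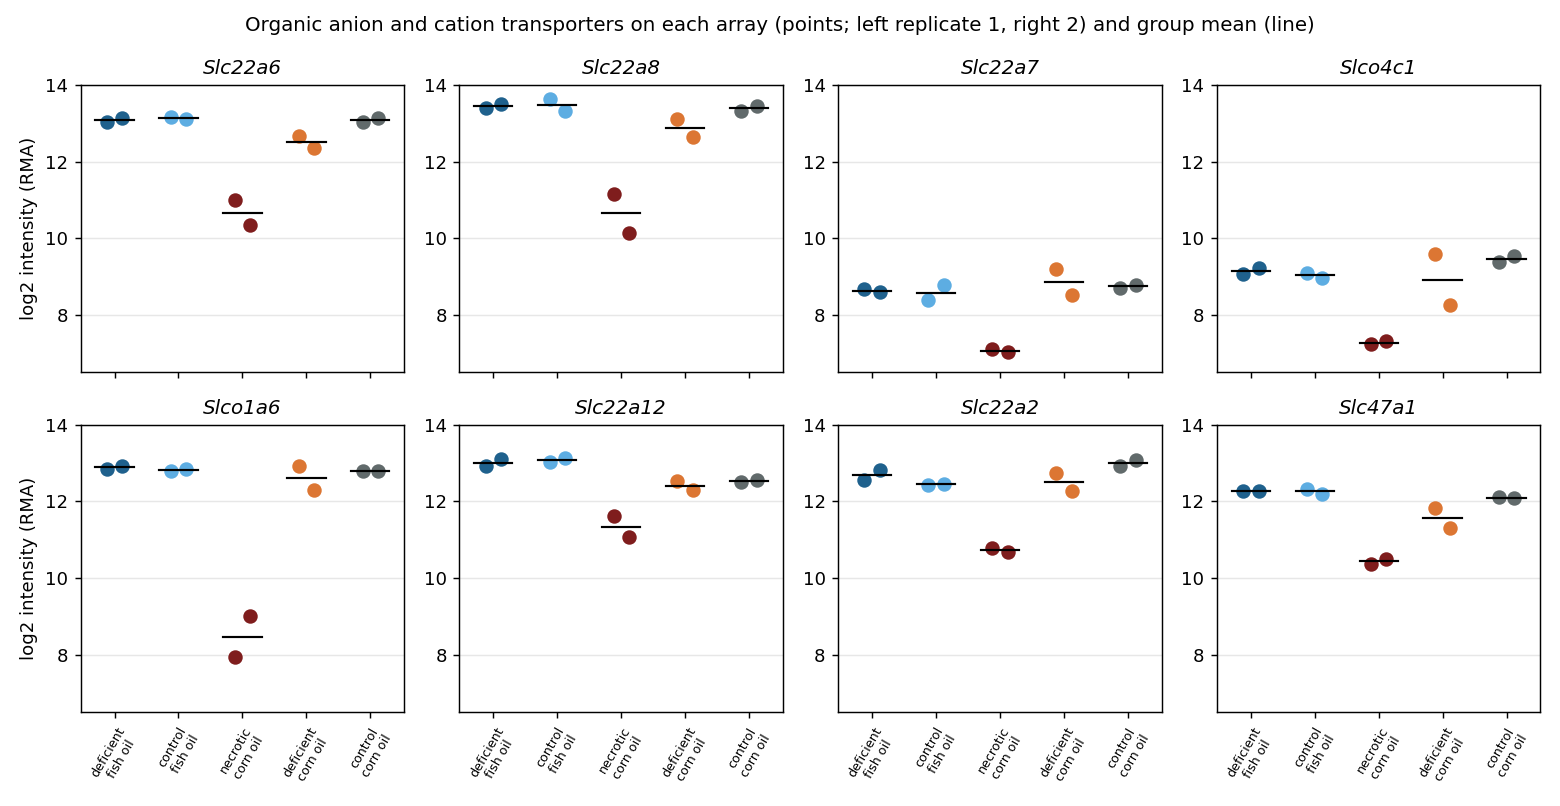
Log2 intensity of 8 organic anion and cation transporters on each of the 10 arrays (points, replicate 1 left and 2 right, with the group mean as a line) in deficient fish oil, control fish oil, necrotic corn oil, deficient corn oil and control corn oil kidneys. The necrotic arrays are the lowest for all 8 genes, and replicate 2 of the deficient corn oil kidneys is below replicate 1 for all 8.

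Among the basolateral anion exchangers, Slc22a8 had 11.17 and 10.14 on the necrotic arrays, 13.11 and 12.63 on the deficient corn oil arrays and 13.32 and 13.46 on the control corn oil arrays. The 3 corn oil groups did not overlap, but deficient against control was not called (adjusted p = 0.446 in the limma fit). The share of all probe sets with 3 separate corn oil groups was not counted. The 2 necrotic arrays lay further apart than those of the other groups. The fall against control was 2.73 ± 0.30 (adjusted p = 0.000504), which left 15.1% of the control level. Slc22a6 had 10.99 and 10.35 on the necrotic arrays, 12.66 and 12.36 on the deficient corn oil arrays and 13.03 and 13.15 on the control corn oil arrays. Its 3 corn oil groups were ordered as those of Slc22a8, with the same necrotic replicate lower, and the necrotic kidneys fell by 2.42 ± 0.20 (adjusted p = 0.00014), to 18.6% of control. Slc22a7, with lower values than both, had 7.10 and 7.03 on the necrotic arrays, 9.19 and 8.51 on the deficient corn oil arrays and 8.70 and 8.79 on the control corn oil arrays. Only the necrotic arrays stood apart here, since the deficient arrays lay on either side of the control arrays, and the fall against control was 1.68 ± 0.21 (adjusted p = 0.00102).

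The 2 SLCO carriers differed in size of fall. Slco1a6 had 7.95 and 9.0 on the necrotic arrays, 12.93 and 12.30 on the deficient corn oil arrays and 12.78 and 12.79 on the control corn oil arrays. The necrotic level was 19.9-fold below control (log2 difference -4.31 ± 0.31, adjusted p = 8.29e-05), and the gap of 3.31 between the higher necrotic array and the lowest other array was the widest among the 8 genes. Its interval, -5.02 to -3.60, did not overlap that of the other 7 carriers, whose intervals lay between -3.42 and -0.76. Slco4c1, which like Slc22a7 had lower values than the other members, had 7.23 and 7.31 on the necrotic arrays, 9.59 and 8.25 on the deficient corn oil arrays and 9.37 and 9.54 on the control corn oil arrays. The necrotic arrays were close together and low, while the deficient arrays spread over 1.34, the widest gap between the arrays of a group for any of the 8 carriers. Slco4c1 fell by 2.18 ± 0.34 against control (adjusted p = 0.00273). Slco1a6 belongs to a family of close paralogs. Of these Slco1a3 fell by 1.58 ± 0.34, and Slco1a4 had -0.55 ± 0.18 (adjusted p = 0.0606). Cross-hybridisation between them was not tested.

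The urate carrier Slc22a12 had 11.62 and 11.07 on the necrotic arrays, 12.53 and 12.28 on the deficient corn oil arrays and 12.49 and 12.55 on the control corn oil arrays. It showed the smallest fall of the 8, 1.18 ± 0.18 (adjusted p = 0.00262), and kept 44.1% of the control level. Of the cation carriers, Slc22a2 had 10.77 and 10.66 on the necrotic arrays, 12.75 and 12.27 on the deficient corn oil arrays and 12.93 and 13.08 on the control corn oil arrays. Slc47a1 had 10.37 and 10.50 on the necrotic arrays, 11.82 and 11.32 on the deficient corn oil arrays and 12.10 and 12.09 on the control corn oil arrays. For both cation carriers the deficient arrays lay between those of the other corn oil groups without overlap, but neither was called in deficient against control. With 2 arrays per group such separation can be common. Deficient and control arrays under fish oil did not overlap on 31.7% of all probe sets, and the share under corn oil was not counted. The basolateral carrier Slc22a2 fell by 2.29 ± 0.17 (adjusted p = 8.53e-05) and the brush border exchanger Slc47a1 by 1.67 ± 0.16 (adjusted p = 0.000298) against control, to 20.5% and 31.5% of its level.

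The second comparison set the deficient corn oil kidneys, which share the diet of the necrotic ones, against control corn oil kidneys. Of the 8 carriers 0 were called in the limma fit, against 1.13% of all probe sets called in either direction. Of the 8 differences 7 were below 0, with a median of -0.51, and 3 had an unadjusted p under 0.05: Slc47a1 at -0.53 ± 0.16 (adjusted p = 0.194), Slc22a2 at -0.50 ± 0.17 (adjusted p = 0.229) and Slc22a6 at -0.58 ± 0.20 (adjusted p = 0.236). Over 14506 genes 17.9% had an unadjusted p under 0.05. Slc22a8 had -0.52 with a 95% interval from -1.20 to 0.17, and Slco4c1 had -0.54 from -1.32 to 0.25. Slc22a12, Slco1a6 and Slc22a7 were at -0.11, -0.17 and 0.11, with intervals from -0.53 to 0.31, -0.88 to 0.54 and -0.38 to 0.60.

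The 2 deficient corn oil arrays were unequal. Replicate 2 was lower than replicate 1 for all 8 carriers, by 0.25 for Slc22a12, by 0.30 for Slc22a6, by between 0.47 and 0.68 for 5 others and by 1.34 for Slco4c1. Over 14506 genes 46.3% were lower on replicate 2, and of the 2144 genes called lower in necrotic against control kidneys 85.2% were. Replicate 2 also had the higher mean of 11 tubular injury markers, 11.07 against 10.65 on replicate 1, and of 8 macrophage markers, 9.01 against 8.61. The control corn oil arrays had injury means of 9.33 and 9.34 and macrophage means of 7.98 and 8.11. The mean of 13 proximal tubule markers was 12.84 on replicate 1 and 12.60 on replicate 2, against 13.02 and 13.06 on the control corn oil arrays. Of the 11 injury markers 6 were called higher in deficient than in control corn oil kidneys, as were 1.45% of all genes. The part of these cells and of injury in the lower carrier values was not tested. Without replicate 1, Slco4c1 was at -1.21 and Slc47a1 at -0.78 against control. Without replicate 2 they were at 0.13 and -0.28.

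**Figure D2:**
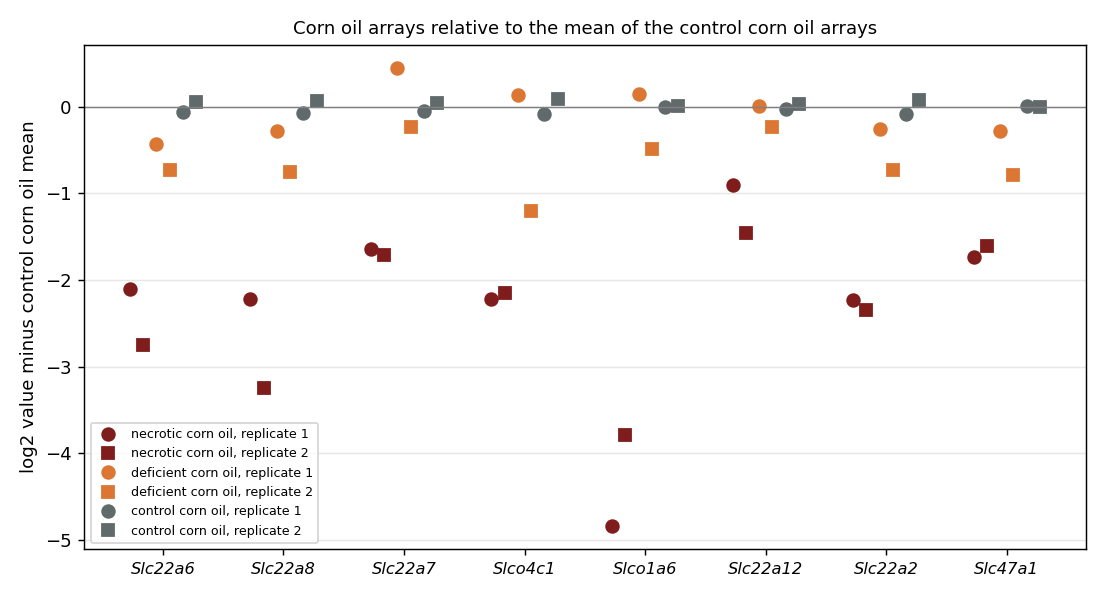
Log2 value of each transporter on the 6 corn oil arrays minus the mean of the control corn oil arrays (circles, replicate 1; squares, replicate 2). The necrotic arrays lie at the bottom for all 8 genes, and replicate 2 of the deficient corn oil kidneys lies between replicate 1 and the necrotic arrays, with Slco4c1 lowest.

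The third comparison set the necrotic against the deficient corn oil kidneys, which differ by the label and not by the diet. All 8 carriers fell, where 5.08% of all probe sets were called lower, with a median of -1.79 against 0.01 over all genes. The deficient arrays entered this comparison and the second one, and the necrotic arrays entered the first and the third, so these differences are not independent. Slco1a6 was at -4.14 ± 0.31 (adjusted p = 0.000262), Slc22a8 at -2.22 ± 0.30, Slc22a6 at -1.84 ± 0.20, Slc22a2 and Slc22a7 at -1.79 each, Slco4c1 at -1.64 ± 0.34, Slc47a1 at -1.14 ± 0.16 and Slc22a12 at -1.06 ± 0.18 (adjusted p = 0.00951). The call of Slco4c1 (adjusted p = 0.0206) ended without either necrotic array (adjusted p = 0.0843 and 0.0849), and that of Slc22a12 ended without replicate 1 of the deficient arrays (adjusted p = 0.0738). Slco4c1 was at -0.98 without replicate 1 of the deficient arrays and at -2.31 without replicate 2, and was called in both cases.

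Under fish oil the question was whether lack of choline moved the carriers. The deficient fish oil kidneys, none labelled necrotic, kept the carriers near the levels of the control fish oil kidneys, and 0 of the 8 were called in the limma fit, where 0% of all probe sets were called. At an unadjusted p under 0.05 there were 0 of the 8 and 2.21% of all genes. The differences lay between -0.07 for Slc22a12 and 0.24 for Slc22a2. Slc22a8 had 13.40 and 13.51 in deficient fish oil kidneys, against 13.63 and 13.33 in control fish oil kidneys. Slc22a6 had 13.02 and 13.14 in deficient fish oil kidneys, against 13.16 and 13.12 in control fish oil kidneys. The groups overlapped for both anion exchangers, and the 95% intervals of their differences were -0.71 to 0.66 and -0.52 to 0.39. Slco1a6 had 12.85 and 12.93 in deficient fish oil kidneys, against 12.79 and 12.85 in control fish oil kidneys, and Slco4c1 had 9.06 and 9.23 in deficient fish oil kidneys, against 9.10 and 8.96 in control fish oil kidneys. Slc22a7 had 8.67 and 8.60 in deficient fish oil kidneys, against 8.39 and 8.77 in control fish oil kidneys. These 3 also showed no separation beyond the spread of their arrays. Slc22a12 had 12.91 and 13.11 in deficient fish oil kidneys, against 13.02 and 13.13 in control fish oil kidneys, and Slc47a1 had 12.26 and 12.28 in deficient fish oil kidneys, against 12.33 and 12.18 in control fish oil kidneys. Slc22a2 had 12.56 and 12.80 in deficient fish oil kidneys, against 12.43 and 12.45 in control fish oil kidneys. Its groups did not overlap, as on 31.7% of all probe sets, and the difference was 0.24 with an interval from -0.14 to 0.63.

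Between the oils, with choline in both diets, 0 of the 8 carriers were called in the limma fit, where 0.185% of all probe sets were, and 2 had an unadjusted p under 0.05, in opposite directions, as did 12.5% of all genes in either direction. Slc22a12 averaged 13.08 in control fish oil kidneys and 12.52 in control corn oil kidneys (difference 0.55 ± 0.18, adjusted p = 0.299). Slc22a2 averaged 12.44 in control fish oil kidneys and 13.01 in control corn oil kidneys (difference -0.56 ± 0.17, adjusted p = 0.255). The other 6 differences lay between -0.42 and 0.16, and the interval of Slc22a6 was -0.41 to 0.51. In the choline-deficient kidneys without the necrotic label, fish oil against corn oil again gave 0 calls in the limma fit, where 1.74% of all probe sets were called. Slc47a1 was highest at 0.70 ± 0.16 (adjusted p = 0.0866), and Slco4c1 was at 0.23 (adjusted p = 0.882). Both depended on the deficient corn oil arrays. Without replicate 1 Slc47a1 was at 0.95 and Slco4c1 at 0.90, and without replicate 2 they were at 0.44 and -0.44. Slc22a12 was at 0.60 ± 0.18, Slc22a8 at 0.58 ± 0.30 and Slc22a6 at 0.57 ± 0.20, and 3 of the 8, Slc47a1, Slc22a12 and Slc22a6, had an unadjusted p under 0.05, as did 16.2% of all genes.

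**Figure D3:**
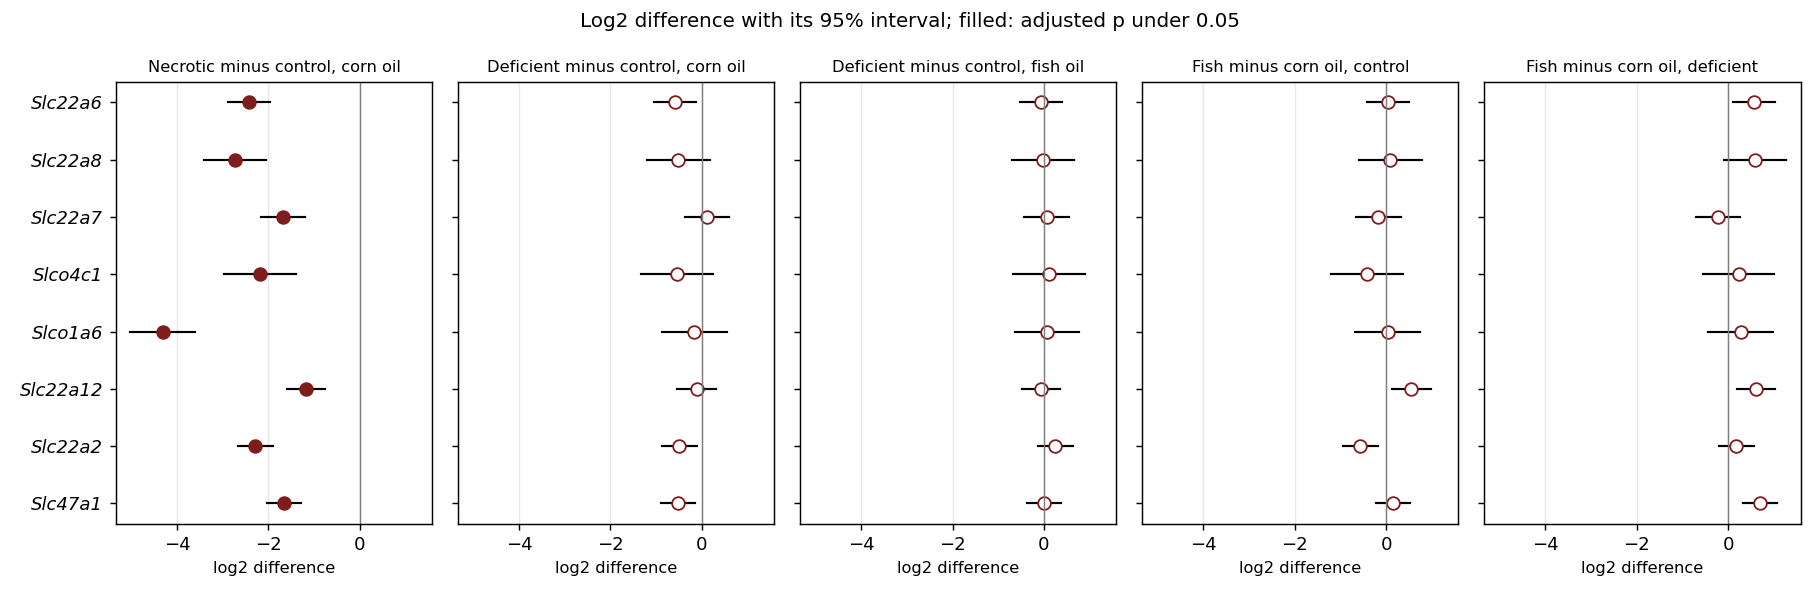
Log2 difference of the 8 transporters with its 95% interval in 5 comparisons (filled points, adjusted p under 0.05). All 8 are called lower in necrotic against control corn oil kidneys, between -4.31 and -1.18, and 0 are called in the other 4 comparisons shown.

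Deficient fish oil kidneys against necrotic corn oil kidneys gave 8 carriers called higher, where 9.25% of all probe sets were. The differences ran from 1.57 ± 0.21 for Slc22a7 to 4.42 ± 0.31 for Slco1a6, with 2.80 ± 0.30 for Slc22a8 and 2.41 ± 0.20 for Slc22a6. This comparison shares the necrotic arrays with the ones above. The effect of lacking choline was also compared between the oils in an interaction, the deficient minus control difference under fish oil minus the same under corn oil. With the necrotic pools as the deficient corn oil kidneys, all 8 carriers had a positive interaction that was called, against 4.9% of all probe sets, between 1.11 ± 0.26 for Slc22a12 and 4.38 ± 0.44 for Slco1a6. The error is pooled over all 5 groups. For Slco4c1 it includes the wide spread of the deficient corn oil arrays (standard deviation 0.946), which are not in this term. The Slco4c1 interaction itself lay between 2.21 and 2.41 over all alternatives described below. On leaving out 1 of the 8 arrays of this term at a time, the call of Slco4c1 ended in all 8 cases, that of Slc22a12 in 7 and that of Slc22a7 in 1, so 5 to 7 carriers were called. With the pools not labelled necrotic, 0 were called in the limma fit, 2 had an unadjusted p under 0.05 (Slc22a2 at 0.74 ± 0.24, adjusted p = 0.391, and Slc47a1 at 0.54 ± 0.23, adjusted p = 0.497), against 11% of all genes, and 0.103% of all probe sets were called.

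Other genes of organic ion handling were read from lists written with earlier results of these data known. Of 19 other organic ion carriers 7 fell and 1 rose in necrotic against control corn oil kidneys, with a median of -0.40, and 4 fell without replicate 2 of the control arrays. Slc22a24 and Slc22a25, of the same family as the anion exchangers, had -3.33 ± 0.18 and -3.19 ± 0.23, Slc22a23 had -1.59 ± 0.14, and Slc22a15 rose by 0.83 ± 0.13. In control corn oil kidneys Slc22a24 and Slc22a25 averaged 11.34 and 11.51. Others of the 19 lay there below the lowest array median of 7.28, such as Slco1b2 at 4.74, Slco1c1 at 5.08 and Slco5a1 at 5.31. Such low values leave less room for a fall, so this list median cannot be set directly beside that of the measured carriers. The effect of dim genes on it was not tested. Of 15 efflux pumps and urate or monocarboxylate carriers 7 fell and 2 rose (median -0.29). Slc17a2, a phosphate and anion carrier, fell by 2.09 ± 0.20. The sodium-coupled monocarboxylate carriers Slc5a12 and Slc5a8 were at -1.61 ± 0.19 and -1.07 ± 0.22, and the urate exporter Abcg2 fell by 1.08 ± 0.21. The drug efflux pump Abcb1b rose by 2.36 ± 0.63 and Abcc5 by 0.69 ± 0.14, and both calls ended without either control array. The brush border efflux pumps Abcc2 and Abcc4, named after their values were seen, were at 0.19 ± 0.14 and -0.16 ± 0.14 there and were not called. In control fish oil against control corn oil kidneys Abcc2 rose by 2.44 ± 0.14 (adjusted p = 0.000594) and Abcc4 by 1.43 ± 0.14 (adjusted p = 0.0105), the only 2 of the 15 that were called in that comparison.

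Of 9 carriers and scaffolds that drive or anchor this transport 7 fell in necrotic kidneys (median -0.89). Slc9a3, the brush border sodium-proton exchanger, fell by 2.63 ± 0.12, and Pdzk1, a scaffold that binds Slc22a12 and other brush border carriers, fell by 2.19 ± 0.23. The dicarboxylate carrier Slc13a2 fell by 2.11 ± 0.26, and Glyat, which makes glycine conjugates such as hippurate, was at -1.10 ± 0.11. Of 10 transcription factors known to act on such carriers 6 fell and 0 rose (median -0.83), with Hnf4g at -2.13 ± 0.31, Ppara at -1.81 ± 0.22, Hnf4a at -1.40 ± 0.14 and the bile acid receptor Nr1h4 at -1.35 ± 0.18. In deficient against control corn oil kidneys 1 gene of these 4 lists was called, Slc9a3 at -0.83 ± 0.12, and in deficient against control fish oil kidneys 0 were in the limma fit.

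**Figure D4:**
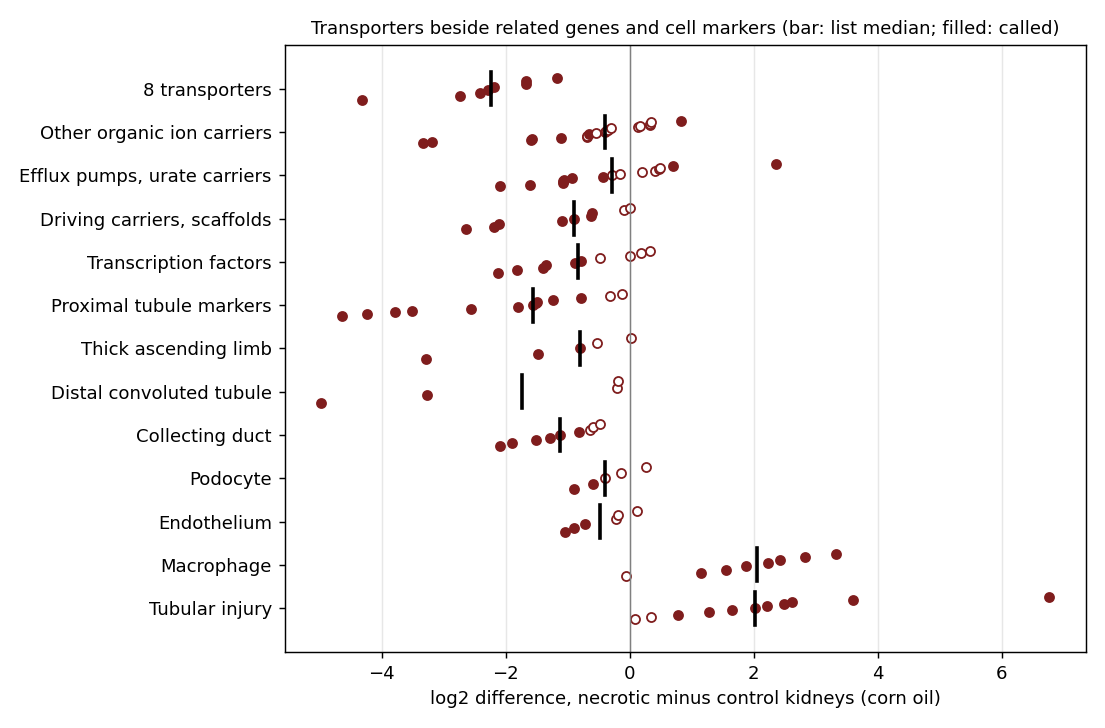
Log2 difference between necrotic and control corn oil kidneys for the 8 transporters and for each gene of 12 other lists (filled points, adjusted p under 0.05; black bars, list medians). The 8 transporters have a median of -2.23, the 13 proximal tubule markers -1.57, the 8 macrophage markers 2.05 and the 11 tubular injury markers 2.02. Some genes of the other lists lay below the array medians in control corn oil kidneys, which leaves less room for a fall.

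Cell markers moved beside the carriers in the necrotic kidneys. Of 13 proximal tubule markers 11 fell and 0 rose (median -1.57), among them Acsm3, a fatty acid activating enzyme, at -4.65 ± 0.14 and Miox, of inositol breakdown, at -4.23 ± 0.15. The mean of these markers lay at 10.97 and 10.87 on the necrotic arrays and between 13.02 and 13.06 on the control corn oil arrays. Markers of the thick ascending limb fell in 3 of 5 cases (Umod at -3.29 ± 0.13), of the distal convoluted tubule in 2 of 4 (Calb1 at -4.98 ± 0.31), of the collecting duct in 6 of 9, of podocytes in 2 of 5 and of endothelium in 3 of 6. Of 8 macrophage markers 7 rose, with a mean of 9.94 and 9.98 on the necrotic arrays against 7.98 and 8.11 on the control corn oil arrays, and of 6 neutrophil markers 5 rose. Of 11 tubular injury markers 9 rose, with Havcr1 at 6.77 ± 0.60. Of 4 lymphocyte and 6 adrenal gland markers 0 were called in the limma fit, and 1 of 5 adipocyte markers fell (Cidec at -1.27 ± 0.30). Of 7 hepatocyte genes 4 fell (Alb at -4.89 ± 1.19 and Cyp2e1 at -2.65 ± 0.27). Alb averaged 6.87 in necrotic and 11.75 in control corn oil kidneys, but between 8.89 and 9.33 in the other groups. The part of these cells in the carrier values was not tested.

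The profiles of the 8 carriers over the 10 arrays were compared with those of all other genes by the root mean square distance between centred log2 profiles, a description with no test in which the necrotic arrays carry much of the distance. For Slc22a6 the nearest genes were Dhtkd1, of lysine breakdown (0.116), and Susd2 (0.119), and for Slc22a8 Upb1, of pyrimidine breakdown (0.107), and Adhfe1 (0.143). Each of these 2 exchangers was the other's nearest among the 8 carriers, at 0.182. Of genes outside the 8, 17 lay nearer than that to Slc22a6 and 6 to Slc22a8. Slc22a2 lay nearest to Kl, klotho (0.135), Slc22a7 to Cdo1, cysteine dioxygenase (0.0964), Slc22a12 to Mcrip2 (0.125) and Slc47a1 to Rhbg, an ammonia transporter (0.108). Slco4c1 lay nearest to B3galt5 (0.140), which was also second nearest to Slc22a2. Slco1a6, with the largest fall, had the fewest close genes, and Slc22a12, with the smallest fall, had the most. The distance was not scaled for the size of a change, so these counts largely restate the falls. Within 0.5 of the Slco1a6 profile lay 26 genes, against between 212 and 1827 genes for the other 7 carriers. The nearest to Slco1a6 were the brush border protease Mep1b (0.229) and Hnmt, which methylates histamine (0.240).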

How the data were processed

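Kidney RNA of 10 pools was measured on 1-colour arrays. The authors deposited log2 intensities for each probe set, after RMA per the submitters' processing notes. Which software ran it is not given in the sources used here. No further scaling or filter was applied, and the files hold no detection calls. Platform annotation named 15310 of 29214 probe sets with 1 gene symbol, 323 had several and were not used for names, and 13581 were not listed. Entrez numbers tied 15279 of the 15310 to RefSeq genes, and 0 symbols changed. A gene was read from its probe set with the highest mean.

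All 5 groups were fitted together with limma 3.58.1 (lmFit, contrasts.fit and eBayes, R 4.3.3; 5 residual and 3.59 prior degrees of freedom), in 9 contrasts of which 2 are interactions. The Benjamini-Hochberg adjustment ran over all 29214 probe sets of a contrast, at a threshold of 0.05. Members, gene lists and tests were chosen with earlier results of these data known. List genes are named by a rule, up to 4 falls and 3 rises called per list and 2 genes per marker list. Slco1a4, Abcc2 and Abcc4 were added after their values were seen, as were Slco1b2, Slco1c1 and Slco5a1 as examples of low values. On data simulated for the necrotic against control contrast, with the spread of these arrays and 200 of 29214 probe sets changed 2-fold, 55.5% to 69.5% were recovered, with 0.794% to 5.97% false calls. The measured contrast called 6098 probe sets, far more than were changed in the simulation, so the recovery there can differ. A planned search of the promoters is not reported here. Figures and sequences were made with Python 3.11.15, pandas 2.3.3, numpy 2.4.6 and matplotlib 3.10.9.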

Additional observations from a re-analysis of the deposited data

Results flagged for a closer look

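The effect of lacking choline differed between the oils for all 8 carriers when the necrotic pools stood for the deficient corn oil kidneys, by the interaction term of the limma fit. The log2 interaction (fish oil effect minus corn oil effect) was 4.38 for Slco1a6, 2.71 for Slc22a8, 2.53 for Slc22a2, 2.36 for Slc22a6, 2.30 for Slco4c1, 1.74 for Slc22a7, 1.68 for Slc47a1 and 1.11 for Slc22a12. The necrotic and control corn oil arrays of this term are those of the direct comparison, so it adds the 4 fish oil arrays only. The label necrotic was given to corn oil pools alone, so the oil and that label cannot be told apart in it. Errors are pooled over all 5 groups, and that of Slco4c1 includes the wide spread of the deficient corn oil arrays, which are outside this term. The call of Slc22a12 (adjusted p = 0.0337) ended without any 1 of 7 arrays, all but necrotic replicate 1, and that of Slco4c1 (adjusted p = 0.0229) without any 1 of the 8. That of Slc22a7 ended without control corn oil replicate 2 (adjusted p = 0.0531).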

How the results depend on the processing

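Each comparison was recomputed with arrays centred on their medians, quantile normalized again or adjusted by cyclic loess, with dim probe sets removed below the 25th or 50th percentile of the mean, with only the compared groups fitted, with a trend and robust prior, with array weights, with the replicate number as a block, and without each array of the compared groups. Averaging probe sets of a gene changed nothing to compare, since each carrier had 1. The 8 falls in necrotic against control corn oil kidneys and the 8 rises in deficient fish oil against necrotic kidneys stayed called in all 13 alternatives, with adjusted p up to 0.0261 and 0.039. Necrotic against deficient corn oil kidneys gave 5 calls when only those groups were fitted, with Slco4c1, Slc22a12 and Slc47a1 not called. Of all 29214 probe sets 411 were called lower in that fit, against 1484 in the fit of all 5 groups. Deficient against control corn oil kidneys gave 0 to 2 calls on leaving out an array. Fish against corn oil in deficient kidneys gave 1 call, Slc47a1, with the 50th percentile filter and 1 with the trend and robust prior, and 0 to 2 on leaving out an array. The interaction with necrotic pools gave 5 to 7 calls on leaving out an array. No carrier called in the fit reported above changed sign in that comparison. Some carriers not called there did change sign over the alternatives. In deficient against control corn oil kidneys Slco4c1 ran from -1.21 to 0.13 and Slc22a7 from -0.23 to 0.45. Slco1a6 ran there from -0.49 to 0.15 and Slc22a12 from -0.24 to 0.01. In fish against corn oil in deficient kidneys Slco4c1 ran from -0.44 to 0.90 and Slc22a7 from -0.56 to 0.12. Slc22a2 ran there from -0.06 to 0.41 and Slco1a6 from -0.05 to 0.59. Some carriers also changed sign in the other comparisons without called carriers. Median centring moved the median of all probe sets in necrotic against control kidneys to -0.04, against 0.06 without it. Same-numbered pools are not said to share animals or days, and the correlations of their deviations between groups ran from -0.17 to 0.14. With the replicate block the carrier counts were unchanged, for example 8 in necrotic against control kidneys, and over all probe sets the calls of the non-necrotic interaction went to 11, against 30 without it. Over the alternatives, calls in necrotic against control kidneys ran from 3003 to 6664, in deficient against control corn oil kidneys from 32 to 714 (330 as reported), in necrotic against deficient from 654 to 3625, and in fish against corn oil from 3 to 162 with choline and from 25 to 723 without. The number of arrays limits what could be detected.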
